A study of Mus musculus with 18 samples.

Results

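Livers of high-fat-fed mice (HF) and of chow-fed mice (CD) were compared at ZT18, the middle of the dark phase, when mice are active and feed. ZT is zeitgeber time, the hours since lights on in a cycle of 12 h light and 12 h dark. The comparison used 6 of the 18 arrays of the series, namely the 3 HF ZT18 and the 3 CD ZT18 arrays, and covered 65956 transcript clusters, each a set of probes for 1 transcribed locus. All groups were male C57BL/6J mice obtained at 4 weeks of age and fed ad libitum for 11 weeks, and each array held RNA from whole liver of 1 mouse. HF mice ate a diet with 53% of its calories from fat and received a daily intraperitoneal injection of saline at ZT11 in the last 3 weeks. CD mice ate chow with 18% of its calories from fat. The study's text says of the mice not given NAD+ that they received vehicle, which on a plain reading includes CD mice, while the series design names saline for HF mice alone. The same diets were also sampled at ZT6, in the light phase, and a further group on the high-fat diet (HFN) received NAD+ (50 mg/kg) with the same timing in place of saline. The high-fat diet serves as a model of diet-induced obesity.

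In the liver, fatty acids arrive from adipose tissue and from food or are made from sugar, and are then burned in mitochondria and peroxisomes, exported in lipoproteins or stored as triglyceride in lipid droplets. The nuclear receptor PPAR alpha senses fatty acids and switches on genes of their oxidation, SREBP1c and ChREBP drive genes of their synthesis, and PPAR gamma, low in lean liver, drives storage genes in fatty liver. Many of these genes also follow the circadian clock and the feeding rhythm of the animal, which peaks at night in mice.

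The CD arrays were not alike. Across all transcript clusters, which are not independent, CD replicate 1 correlated at r = 0.981 and 0.984 with CD replicates 2 and 3, but at 0.989 to 0.994 with the 3 HF arrays, while CD replicates 2 and 3 correlated at 0.995 with each other. The median log2 signal of the 5222 negative control probe sets was 4.62, 4.63 and 4.69 on the HF arrays, and 4.67, 4.91 and 4.91 on the CD arrays. Neat1, a long noncoding RNA that stays in the nucleus, read 7.79, 7.23 and 8.35 on the HF arrays, and 8.08, 15.14 and 15.16 on the CD arrays, so that CD replicates 2 and 3 stood apart from the other 4. Hepatocyte markers averaged 18.07 to 18.17 on HF arrays and 18.13 to 18.25 on CD arrays, whereas markers of lymphocytes and neutrophils averaged 4.41 to 4.51 on HF arrays and 4.42 to 4.47 on CD arrays, below the negative control median of every array. The labelled tissue was thus liver on all 6 arrays. In bulk tissue, fewer cells of a type and less RNA per cell cannot be told apart.

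At ZT18, HF livers differed from CD livers in 400 transcript clusters (0.606% of those tested), of which 313 were higher in HF (0.475%) and 87 lower (0.132%). A transcript was called when its adjusted p was under 0.05 (limma with Benjamini-Hochberg adjustment over all clusters) and its log2 fold change was over 0.32 in size. Before adjustment, 5847 clusters had a p under 0.05 at that fold (8.87%), 2553 of them higher in HF (3.87%) and 3294 lower (4.99%). More than 2-fold differences were found in 123 of the higher and 51 of the lower transcripts. Of the 400, 333 carried 1 gene symbol, and these split into 285 higher and 48 lower. Among these, the largest rises were of Cyp4a14, Cyp17a1, Cd36 and Vnn1, genes of fatty acid and steroid handling, and the largest falls of Gstp1 and its pseudogene, Cyp7a1, Csad and Selenbp2. In all 400 the 3 HF values lay on one side of the 3 CD values, a separation that 15.8% of all clusters showed. An exact permutation test of 3 against 3 mice cannot go below p = 0.1, so the calls rest on the model fitted across all clusters and all 18 arrays.

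**Figure D1:**
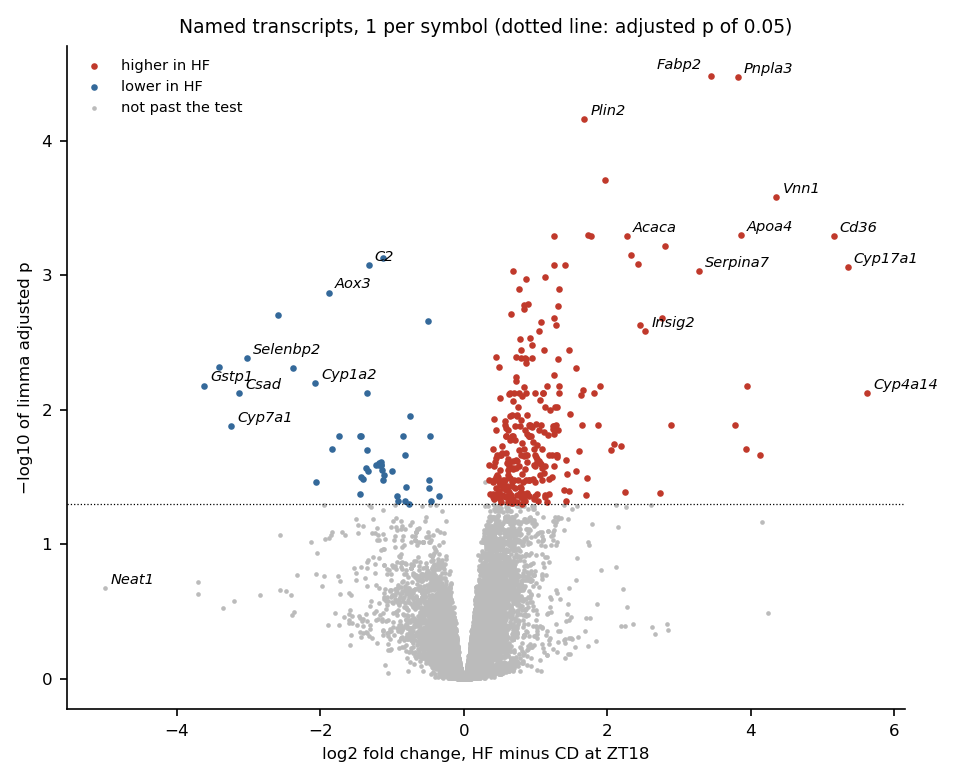
Each point is 1 named transcript, with the log2 fold change of HF over CD livers at ZT18 on the horizontal axis and -log10 of the limma adjusted p on the vertical axis (3 mice per group). The dotted line marks an adjusted p of 0.05, and more points pass it on the right, higher in HF, than on the left.

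Because CD replicates 2 and 3 stood apart, each call was also set against CD replicate 1 alone. Since HF and CD values do not overlap in any of the 400, the sign of that difference is fixed and only its size is informative. The median difference of the higher transcripts was 0.75 from CD replicate 1 and 0.94 from the mean of CD replicates 2 and 3 (log2), and that of the lower ones was -0.81 and -1.26. The number of calls depended strongly on the arrays. Without CD replicate 1 it was 3256 (1469 higher and 1787 lower, 398 of them among the 400), and with CD replicates 2 and 3 both left out it was 67 (41 higher and 26 lower, 42 of them among the 400). With the negative control median of each array as a covariate 138 transcripts passed, 123 of them among the 400. Leaving out each of the 6 arrays in turn, 75 of the 313 higher and 17 of the 87 lower transcripts kept their call every time, and a call that held in this way is described below as held on every omission. These 75 and 17 also kept their call on leaving out each of the 18 arrays of the series. Other calls depended on arrays outside the comparison too. Of the 18 omissions, Acly kept its call on 7, Elovl5 and Khk on 5 each and Psmd11 on 2. HF replicate 2 was the array whose omission left the fewest calls (105). A fit on the 6 arrays alone made 46 calls, 41 of them among the 400. Of the genes described below, Cd36, Fabp2, Acsl5, Plin2, Pnpla3, Acaca, Elovl2, Vnn1, Apoa4, Cyp17a1 and C2 passed on every omission, in that fit and with CD replicates 2 and 3 both left out. What part the array difference had in the calls was not tested beyond these values.

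**Figure D2:**
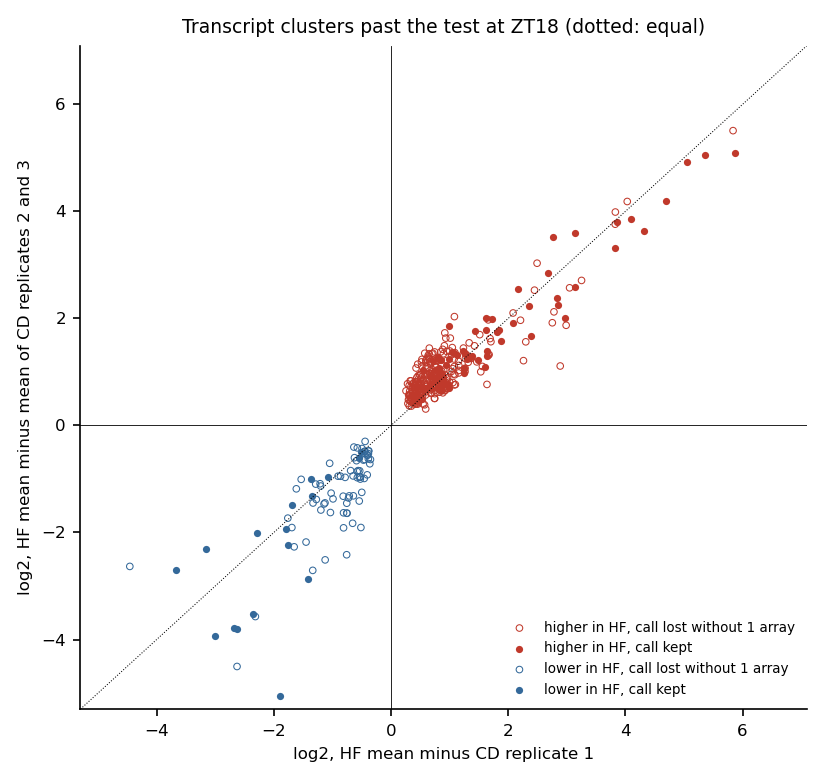
Each point is 1 of the 400 called transcripts, with the difference of the HF mean from CD replicate 1 on the horizontal axis and from the mean of CD replicates 2 and 3 on the vertical axis (log2). Filled points kept their call on leaving out each of the 6 arrays, the dotted line marks equal differences, and the shared sign on both axes follows from how the calls separate the groups.

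Of 15 measured genes of fatty acid uptake, binding and activation, 4 rose in HF livers and none fell, with a median log2 fold change of 0.26 beside 0.02 over all named transcripts. Cd36, the fatty acid translocase, read 12.85, 14.51 and 13.49 on HF arrays, and 8.27, 8.44 and 8.69 on CD arrays. The lowest HF liver was far above the highest CD liver, and the log2 fold change was 5.15 (SE 0.52, limma adjusted p = 0.000509), or 35.6-fold. Fabp2, the intestinal fatty acid-binding protein, read 16.36, 16.89 and 16.63 in HF livers and 13.49, 13.03 and 13.02 in CD livers. The groups did not overlap (3.45, SE 0.25, adjusted p = 3.27e-05). Acsl5, which activates long-chain fatty acids with coenzyme A, read 16.79, 16.96 and 16.71 in HF livers and lay between 14.96 and 15.19 in CD livers, again without overlap (1.77, SE 0.18, adjusted p = 0.000509). These 3 calls held on every omission. Acsm3, the other member called higher, lost its call without any of the 6 arrays but CD replicate 1 (adjusted p up to 0.153 without HF replicate 2). Fabp1, the main fatty acid-binding protein of liver, did not pass (0.35). It read 19.79 to 19.90 in HF livers and 19.34 to 19.77 in CD livers, near the ceiling of the scale at 19.93, which limits the difference that could show.

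Of 20 measured genes of the lipid droplet, 7 rose in HF livers and none fell, and the median log2 fold change was 0.83. Plin2, the coat protein found on most hepatic lipid droplets, read 15.49, 15.54 and 15.56 in HF livers and 13.66, 13.97 and 13.93 in CD livers. The spread within each group was small beside the gap, and the log2 fold change was 1.68 (SE 0.13, adjusted p = 6.9e-05). Cidec, which fuses small droplets into large ones, read 8.54, 9.35 and 9.66 in HF livers, and 5.09, 5.27 and 5.37 in CD livers. It was among the largest rises of the group (3.94, SE 0.58, adjusted p = 0.00659), and both of these calls held on every omission, although Cidec did not pass with CD replicates 2 and 3 both left out. Cidea, of the same family and typical of brown fat, read 7.49, 9.35 and 10.51 in HF livers and 5.29, 5.13 and 5.13 in CD livers. Its HF values spread widely, and its call (3.94, SE 0.69, adjusted p = 0.0196) was lost on omission of CD replicate 2 or 3 or of HF replicate 2 or 3, with an adjusted p up to 0.106 without HF replicate 2. Plin5, which tethers droplets to mitochondria (0.98, adjusted p = 0.0256), Abhd5, the coactivator of adipose triglyceride lipase (1.11, adjusted p = 0.0145), Mgll, the monoglyceride lipase (0.85), and Hilpda, an inhibitor of that triglyceride lipase (0.45, with CD replicates 2 and 3 below the negative control median of their arrays), were the other members that rose, and each of these calls was lost on 1 or more omissions (for Abhd5, each omission but that of CD replicate 1, up to 0.0786). Pparg itself was at 1.05 (adjusted p = 0.209) and did not pass.

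**Figure D3:**
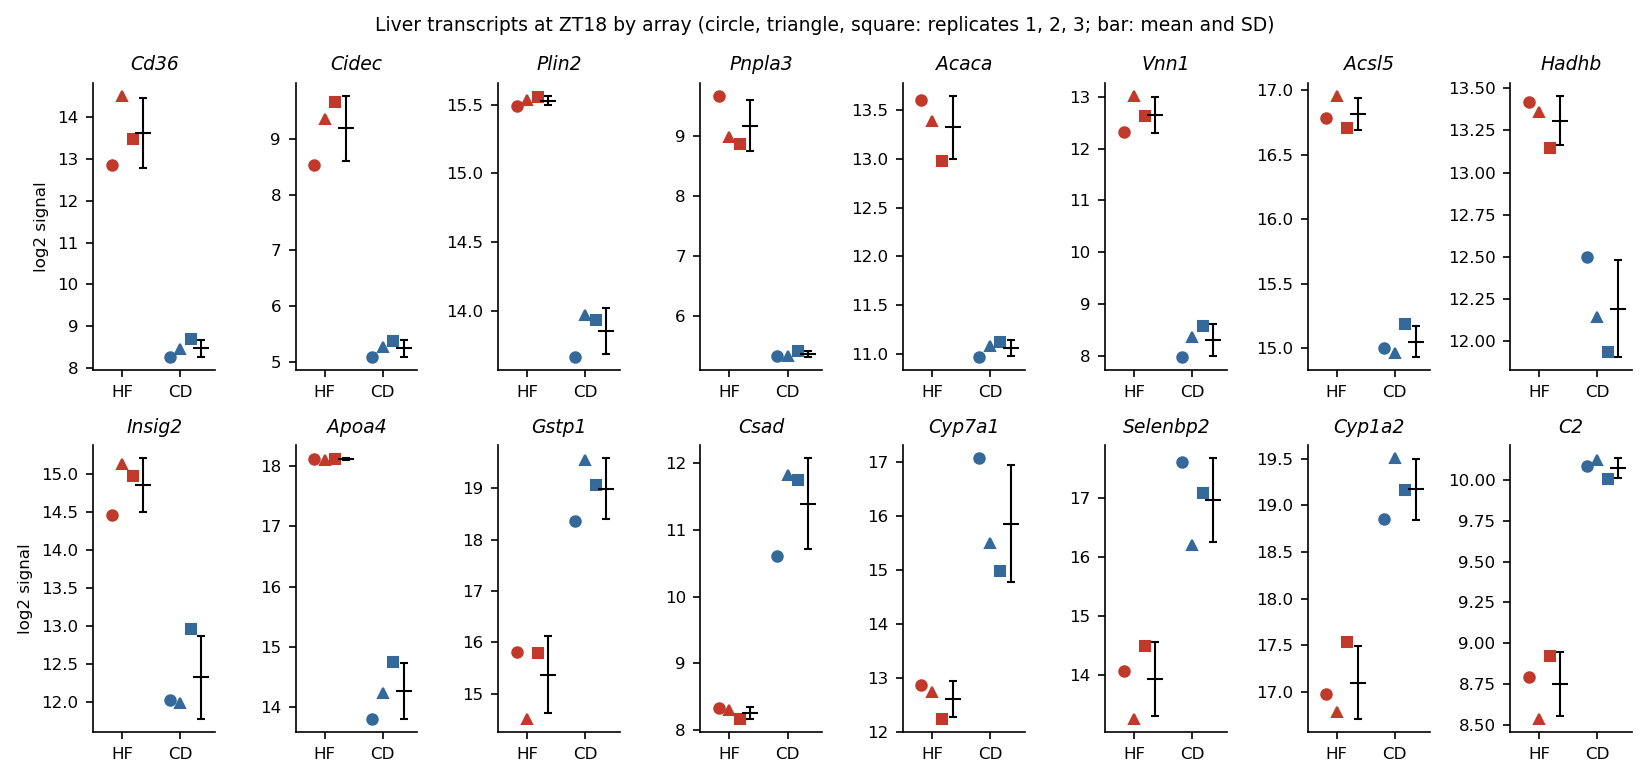
Log2 signal of 16 genes on the 3 HF ZT18 arrays (left in each panel) and the 3 CD ZT18 arrays (right), with circle, triangle and square for replicates 1, 2 and 3 and bars for the mean ± SD. In every panel the HF and CD points do not overlap, the upper 8 genes and Insig2 and Apoa4 being higher in HF and the other 6 lower.

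Of 16 measured genes of fatty acid synthesis, 6 rose in HF livers, none fell and 10 did not pass, and their median of 1.45 was the highest of the lists examined. Pnpla3, a lipid droplet hydrolase and a target of SREBP1c and ChREBP, read 9.67, 8.99 and 8.88 in HF livers and 5.33, 5.33 and 5.42 in CD livers. The CD values were near those of the negative controls, and the log2 fold change was 3.82 (SE 0.28, adjusted p = 3.34e-05). Acaca, the acetyl-CoA carboxylase that commits carbon to synthesis, read 13.61, 13.39 and 12.97 in HF livers and 10.96, 11.08 and 11.12 in CD livers. It did not overlap between groups (2.27, SE 0.23, adjusted p = 0.000509), and both calls held on every omission. Me1, the malic enzyme that supplies NADPH, read 18.13, 18.24 and 17.39 in HF livers and 14.67, 14.78 and 15.64 in CD livers. Its call (2.89, SE 0.48, adjusted p = 0.0129) was lost without CD replicate 2, HF replicate 1 or HF replicate 2 (up to 0.0861), and that of Acly, the ATP citrate lyase (2.24, adjusted p = 0.0407), without any of the 6 but CD replicate 1 (up to 0.189 without HF replicate 2). Fasn, the fatty acid synthase, read 16.34, 16.02 and 15.78 in HF livers and 13.35, 14.59 and 13.76 in CD livers. Its groups did not overlap, but at 2.15 it did not pass (adjusted p = 0.0747). Mlxipl, which encodes ChREBP, was at -1.41 (adjusted p = 0.403), and Scd1, the stearoyl-CoA desaturase, sat at the ceiling of the scale, 19.93, on all 6 arrays and could show no difference.

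Of 13 measured elongases, desaturases and partners, 4 rose and none fell. Elovl2, which elongates polyunsaturated fatty acids, was at 1.32 (adjusted p = 0.00169) and held on every omission. Elovl5, of the same pathway, read 18.36, 18.41 and 18.41 in HF livers and 15.51, 17.15 and 17.43 in CD livers. The CD values were uneven, with replicate 1 lowest, and the call (1.70, adjusted p = 0.0433) was lost without CD replicate 2 or any HF array (up to 0.175 without HF replicate 2). Fads1, the delta-5 desaturase, was at 1.06 and lost its call without CD replicate 3 or any HF array. Fads2, the delta-6 desaturase, had 2 clusters, of which the brighter missed the threshold (1.58, adjusted p = 0.0521) and the dimmer passed it (1.91). In the sterol pathway no gene of cholesterol synthesis passed (0 of 17, median 0.27, Hmgcs1 highest at 1.45 with an adjusted p of 0.276). Insig2, which holds the SREBP complex in the endoplasmic reticulum, read 14.46, 15.13 and 14.97 in HF livers and 12.02, 11.99 and 12.96 in CD livers. It rose without overlap (2.53, SE 0.33, adjusted p = 0.00258) and held on every omission but not in the fit on the 6 arrays alone, while its partner Insig1 was at -0.28 and did not pass.

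The promoters of 3 higher genes are shown because their windows hold a canonical E-box, CACGTG, the hexamer that CLOCK and BMAL1, among other factors, can bind. Sequences are from RefSeq on GRCm38.p6, run 5′ to 3′ on the gene's strand over a window of 300 bases around the annotated start, and capitals mark the E-box. Plin2 lies at chr4:86670010-86670309 on the minus strand, Khk at chr5:30921309-30921608 on the plus strand and Elovl5 at chr9:77917115-77917414 on the plus strand. The E-box starts 4, 71 and 161 bases upstream of the start in that order of genes.
Plin2 promoter: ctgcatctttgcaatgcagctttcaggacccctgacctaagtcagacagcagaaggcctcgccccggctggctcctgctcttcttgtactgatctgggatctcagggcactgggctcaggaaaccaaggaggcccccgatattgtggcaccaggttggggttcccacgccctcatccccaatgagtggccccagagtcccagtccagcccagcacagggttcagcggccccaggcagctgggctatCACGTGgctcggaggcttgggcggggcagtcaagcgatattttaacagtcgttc
Khk promoter: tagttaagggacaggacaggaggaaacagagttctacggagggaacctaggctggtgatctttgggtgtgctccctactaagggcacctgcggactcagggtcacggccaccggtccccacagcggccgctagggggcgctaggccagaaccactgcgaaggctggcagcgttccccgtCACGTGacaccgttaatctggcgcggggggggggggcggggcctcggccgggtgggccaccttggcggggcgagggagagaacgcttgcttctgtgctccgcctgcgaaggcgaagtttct
Elovl5 promoter: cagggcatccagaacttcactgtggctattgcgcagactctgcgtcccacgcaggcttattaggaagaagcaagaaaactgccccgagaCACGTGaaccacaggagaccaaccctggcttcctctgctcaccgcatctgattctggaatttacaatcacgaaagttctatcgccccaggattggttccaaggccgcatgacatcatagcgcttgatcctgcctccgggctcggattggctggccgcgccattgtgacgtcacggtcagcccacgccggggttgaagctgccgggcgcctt

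The hexamer CACGTG, which reads alike on both strands, was found in 21 of 211 higher genes with a promoter in the table (9.95%), in 2 of 31 lower genes (6.45%) and in 8.09% of all 27025 genes. The direct repeat of AGGTCA with 1 free base between its copies, the form that PPAR and RXR receptors bind, was found in 0 of the 211 and 0 of the 31 on either strand, and in 13 of 32851 windows (0.04%). A match or its absence describes these letters in these windows only.

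In mitochondrial fatty acid oxidation all 19 measured genes had a positive log2 fold change, where 56.8% of all named transcripts did, 10 rose past the test and the median was 0.81. The count of calls was 0 of 19 in the fit on the 6 arrays alone and 2 of 19 with CD replicates 2 and 3 both left out. Hadhb, the beta subunit of the trifunctional protein, read 13.42, 13.36 and 13.14 in HF livers and 12.50, 12.14 and 11.93 in CD livers. The groups did not overlap and the call held on every omission (1.12, SE 0.15, adjusted p = 0.0036). Eci1, an enoyl-CoA isomerase (1.05, adjusted p = 0.00258), and Etfdh, which passes electrons from oxidation to ubiquinone (0.83, adjusted p = 0.00166), held likewise. Hadhb and Eci1 did not pass in the fit on the 6 arrays alone or with CD replicates 2 and 3 both left out. The reductase Decr1 (1.01), the thiolase Acat1 (1.01), the acyl-CoA dehydrogenases Acadl (0.89) and Acadm (0.81), the dehydrogenase Hadh (0.73) and Hadha, the alpha subunit of the trifunctional protein (0.48), also rose, each with a call that was lost on 1 or more omissions. Bdh1, which forms the ketone body 3-hydroxybutyrate, read 10.27, 10.31 and 10.10 in HF livers and 9.19, 8.92 and 8.78 in CD livers, and rose without overlap on every omission (1.26, SE 0.13, adjusted p = 0.000509) but not in the fit on the 6 arrays alone. Cpt1a, the carnitine transferase at the entry of the pathway, was at 1.32 and did not pass (adjusted p = 0.0627), and Ppara was at 0.54 (adjusted p = 0.363).

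The classic targets of PPAR alpha outside mitochondria gave the largest fold change of the comparison. Cyp4a14, a microsomal omega-hydroxylase of fatty acids, read 17.38, 17.85 and 16.89 in HF livers and 11.53, 14.06 and 9.66 in CD livers. The CD livers differed widely among themselves but all lay below the HF livers, and the log2 fold change was 5.62 (SE 0.85, adjusted p = 0.00747), or 49.1-fold, with an adjusted p of 0.0551 without HF replicate 2. Vnn1, the pantetheinase, read 12.33, 13.02 and 12.63 in HF livers and 7.97, 8.36 and 8.58 in CD livers. Its groups were tightly separated (4.36, SE 0.40, adjusted p = 0.000262), and it held on every omission. The near-identical Cyp4a31 (2.10, adjusted p = 0.0178) and Cyp4a32 (2.05, adjusted p = 0.0197) may share probes and are uncertain as separate genes; without CD replicate 3 or any HF array they did not pass (0.102 and 0.112 without HF replicate 2). In all, 6 of 18 genes of omega-oxidation, acyl-CoA thioesterases and vanins rose and none fell (median 0.92).

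Of 21 peroxisomal genes, 8 rose and none fell, with a median of 0.61. Pex19, a chaperone of peroxisomal membrane proteins, was at 0.77 and was the only 1 of the 8 to hold on every omission. Abcd2, a peroxisomal importer of very long acyl-CoAs, read 9.52, 10.31 and 8.90 in HF livers and 5.75, 6.12 and 5.51 in CD livers. The gap was wide (3.78, SE 0.62, adjusted p = 0.0129), yet the call was lost without CD replicate 3 or HF replicate 2 (up to 0.0867). Ehhadh, the peroxisomal bifunctional enzyme (1.29, adjusted p = 0.0216, lost without CD replicate 2 or 3 or HF replicate 1 or 2, up to 0.133), and Pex11a, which divides peroxisomes (1.65, adjusted p = 0.0129, lost without CD replicate 2 or HF replicate 2, up to 0.0778), depended on single arrays too. Aldh3a2, a fatty aldehyde dehydrogenase on the list of other PPAR alpha targets, held on every omission (1.26, adjusted p = 0.000834), though it did not pass in the fit on the 6 arrays alone. Fgf21, the fasting hormone made by liver, read 5.03, 5.01 and 4.68 in HF livers and 4.02, 3.96 and 4.04 in CD livers. All CD values and HF replicate 3 lay below the negative control median of their arrays, so that its call (adjusted p = 0.00164) compares signals at background and no fold is given.

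Over the lipid lists of synthesis, storage and oxidation together, 50 of 190 measured genes rose and none fell, where 0.606% of all clusters and 1.07% of named transcripts were called, and 18 of the 50 held on every omission. Their median difference was 0.53 from CD replicate 1 and 0.47 from CD replicates 2 and 3, beside -0.04 and 0.03 over all clusters.

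**Figure D4:**
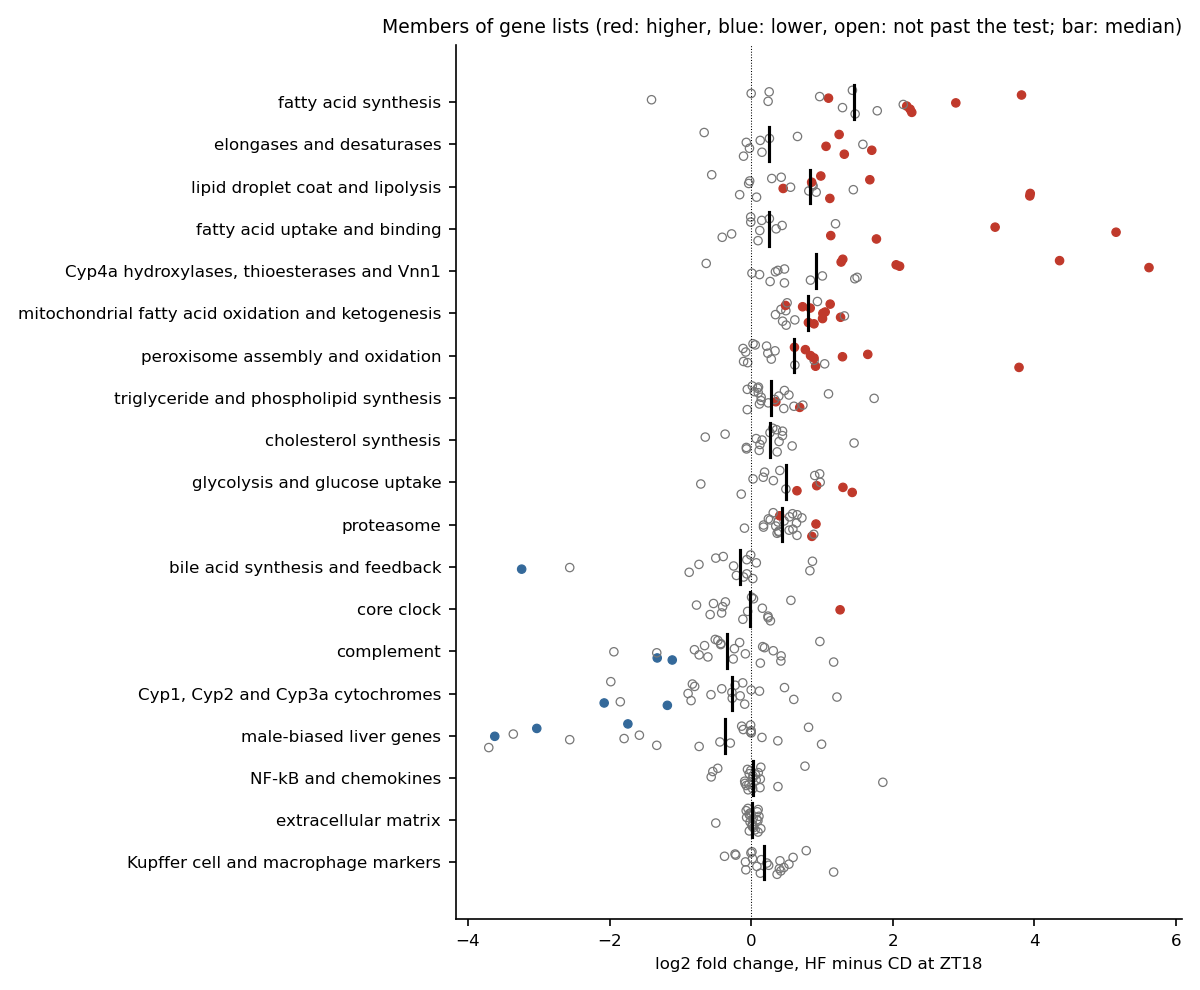
Each row is a gene list and each point 1 measured member, placed by its log2 fold change of HF over CD at ZT18. Filled points passed the test (red higher in HF, blue lower in HF), open points did not, and the bar is the list's median, which is farthest to the right for fatty acid synthesis.

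Lipoprotein and sugar genes changed singly. Apoa4, an apolipoprotein that rises in fatty liver, read 18.12, 18.11 and 18.13 in HF livers and 13.81, 14.24 and 14.74 in CD livers. The HF values were nearly equal and far above CD (3.86, SE 0.38, adjusted p = 0.000498). Mttp, which loads triglyceride onto lipoproteins, was at 0.95 (adjusted p = 0.00411), and these 2 were the only ones of 16 to pass, both on every omission, Mttp but not Apoa4 losing its call in the fit on the 6 arrays alone and with CD replicates 2 and 3 both left out. In glycolysis 4 of 15 genes rose and none fell. Pdk1, a kinase that turns off pyruvate dehydrogenase, was at 0.93 (adjusted p = 0.0029, held on every omission, lost in the fit on the 6 arrays alone and with CD replicates 2 and 3 both left out). Pdha1, a subunit of that dehydrogenase, rose too, by 0.91 from CD replicate 1 and 1.49 from CD replicates 2 and 3. Its call was lost without any of the 6 but CD replicate 1 (up to 0.119). Outside the list, Pdhb and Dlat of the same complex were also called higher, each call being lost on 1 or more omissions. Khk, the fructokinase, was at 1.43 (adjusted p = 0.0473, lost without any of the 6 but CD replicate 1, up to 0.2 without CD replicate 2), and Ldha, lactate dehydrogenase, was at 0.65 (adjusted p = 0.0111, lost without HF replicate 1 or 3, up to 0.052). No gluconeogenic gene passed (0 of 16), with Pck1 at -2.32 (adjusted p = 0.17) and G6pc at -1.18 (adjusted p = 0.272).

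Among genes of the sex-biased programme of mouse liver, which follows the pattern of growth hormone release, 5 passed the test. Cyp17a1, which makes androgen precursors and is female-biased in mouse liver, read 13.14, 14.68 and 13.68 in HF livers and 7.97, 8.85 and 8.64 in CD livers. The groups were far apart, and the call held on every omission (5.35, SE 0.59, adjusted p = 0.000873). Only it and Abcd2 rose among 23 female-biased genes, with none lower. Among 22 male-biased genes 3 fell and none rose, with a median of -0.37. Selenbp2, a selenium-binding protein, read 14.07, 13.26 and 14.50 in HF livers and 17.61, 16.21 and 17.09 in CD livers, and fell without overlap (-3.03, SE 0.42, adjusted p = 0.00411). Its close relative Selenbp1 was at -2.59 (adjusted p = 0.00197), and their probes may cross-react. Susd4, a complement regulator, was at -1.74 (adjusted p = 0.0157, lost without CD replicate 3 or HF replicate 2 or 3, up to 0.104). The male-biased Hsd3b5 (-1.58) and Cyp7b1 (-2.56, adjusted p = 0.0845) did not pass, and Mup20 was at the ceiling on all arrays.

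Detoxifying enzymes held several of the largest falls. Gstp1, a glutathione transferase, read 15.81, 14.50 and 15.80 in HF livers and 18.37, 19.55 and 19.06 in CD livers. All HF livers lay below all CD livers (-3.62, SE 0.53, adjusted p = 0.00659), and its pseudogene Gstp-ps, whose probes may read the same transcript, was at -3.41. Cyp1a2, which oxidises aromatic amines and caffeine, read 16.97, 16.78 and 17.54 in HF livers and 18.85, 19.50 and 19.16 in CD livers, also without overlap (-2.08, SE 0.30, adjusted p = 0.00636). Ahr, the aryl hydrocarbon receptor that drives it, was at -1.18 (adjusted p = 0.0246, lost without any of the 6 but CD replicate 1, up to 0.128 without CD replicate 3). These were the only 2 of 21 genes of the Cyp1, Cyp2 and Cyp3a list to pass, whose median was -0.27. Aox3, an aldehyde oxidase, read 14.66, 14.17 and 14.96 in HF livers and 16.39, 16.41 and 16.64 in CD livers, and fell with little scatter (-1.88, SE 0.22, adjusted p = 0.00134). The calls of Gstp1, Cyp1a2, Aox3 and both selenium-binding proteins held on every omission. None of these 5 passed in the fit on the 6 arrays alone, and Gstp1, Cyp1a2 and Aox3 did not pass with CD replicates 2 and 3 both left out.

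Cyp7a1, the rate-limiting enzyme of bile acid synthesis, read 12.87, 12.74 and 12.24 in HF livers and 17.07, 15.51 and 14.99 in CD livers. CD replicate 1 was the highest, and the fall of 3.24 on the log2 scale (SE 0.54, adjusted p = 0.0132) was lost without HF replicate 2 (0.0656) or HF replicate 3. It was the only one of 16 bile acid genes to pass, with Cyp8b1 at -0.25, Cyp27a1 at -0.06 and Nr0b2, the repressor SHP, at -0.06. Csad, which makes the taurine that conjugates bile acids, read 8.32, 8.29 and 8.16 in HF livers and 10.61, 11.82 and 11.75 in CD livers. It fell on every omission (-3.13, SE 0.47, adjusted p = 0.00747), but did not pass in the fit on the 6 arrays alone or with CD replicates 2 and 3 both left out.

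In NAD+ metabolism 2 of 19 genes fell and none rose (median -0.10). Nnmt, which methylates nicotinamide, read 5.94, 6.21 and 6.90 in HF livers and 8.04, 8.09 and 8.43 in CD livers, and its call (-1.84, SE 0.32, adjusted p = 0.0196) was lost without CD replicate 2 or 3 or HF replicate 1 or 2 (up to 0.111). Acmsd, which diverts tryptophan carbon from NAD+ synthesis, read 7.66, 7.63 and 7.91 in HF livers and 9.01, 9.01 and 9.23 in CD livers. Both genes separated the groups, and Acmsd was at -1.35 (SE 0.20, adjusted p = 0.00747, 0.0551 without HF replicate 2). Nampt, the rate-limiting enzyme of NAD+ salvage (0.36), and Sirt1, an NAD+-dependent deacetylase (0.04), did not pass.

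Of 24 complement genes 2 fell and none rose, with a median of -0.34. C2, of the classical pathway, read 8.79, 8.53 and 8.92 in HF livers and 10.09, 10.13 and 10.01 in CD livers, without overlap (-1.33, SE 0.15, adjusted p = 0.000834, held on every omission). C1ra was at -1.11 and its near copy C1rb at -1.15, probes may be shared between them, and both calls were lost on 1 or more omissions. The list's median was -0.03 from CD replicate 1 and -0.44 from CD replicates 2 and 3, so that the median lay near 0 against CD replicate 1. No gene passed among 27 of cytokine and JAK-STAT signalling, 23 of NF-kB targets, 22 interferon-stimulated genes, 24 of TGF-beta signalling or 22 of the extracellular matrix (limma adjusted p, 0 calls in each). Called genes outside these lists included Mrc1, Tlr4 and Nlrp12, each higher in HF, and the chemokine Cxcl12, lower (-1.34, adjusted p = 0.0197). Of these calls only that of Nlrp12 held on every omission. None of the 99 measured cell type markers passed either, a set that includes 10 markers of adipocytes and pancreas. Of the 10 hepatocyte markers, 5 had the same value on every array of the series and could not pass. Marker means in HF and CD livers were 6.82 to 6.91 and 6.47 to 7.02 for Kupffer cells, 6.89 to 6.93 and 6.70 to 6.85 for stellate cells, and 5.40 to 5.53 and 5.28 to 5.36 for cholangiocytes. Before adjustment, 5 of the 22 Kupffer cell and macrophage markers were higher in HF and none lower, beside 3.87% and 4.99% of all clusters. The median difference of these 22 was 0.38 from CD replicate 1 and 0.12 from CD replicates 2 and 3.

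Of 16 measured genes of the core clock, Npas2, a partner of BMAL1 related to CLOCK, was the only one to pass. It read 5.83, 6.69 and 6.71 in HF livers and 4.85, 4.87 and 5.74 in CD livers, so that the lowest HF and the highest CD liver nearly met and CD replicate 2 lay below the negative control median of its array, and the call (1.26, SE 0.23, adjusted p = 0.026) was lost without CD replicate 2, HF replicate 2 or HF replicate 3 (up to 0.157). Arntl, which encodes BMAL1, was at 0.27, Clock at 0.24, Cry1 at 0.24, Nr1d1 at 0.16, Per2 at -0.53 and Per1 at -0.77, with a median of the core clock list of -0.02 (0.03 with quantile scaling). Among 18 clock output genes only Rgs16, a regulator of G protein signalling in periportal hepatocytes, rose. It read 9.27, 9.59 and 8.70 in HF livers and 5.15, 5.12 and 4.88 in CD livers, CD replicate 3 lying below the negative control median of its array, and its call (4.13, SE 0.75, adjusted p = 0.0217) was lost without any of the 6 arrays but CD replicate 1 (up to 0.13 without HF replicate 2). The output factor Dbp was at -0.41.

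Of 24 proteasome subunits 3 rose and none fell, 23 had a positive difference and the median was 0.43. Of all named transcripts, 1.07% were called and 56.8% had a positive difference. None of the 3 subunits passed in the fit on the 6 arrays alone or with the negative control covariate. Psmb7, a subunit of the catalytic core, was highest (0.92, adjusted p = 0.0333, 0.164 without HF replicate 2), followed by Psma1 (0.86) and the regulatory Psmd11 (0.40), and each of these calls was lost without any of the 6 arrays, except that Psmb7 and Psma1 kept theirs without CD replicate 1. The list's median was 0.23 from CD replicate 1 and 0.56 from CD replicates 2 and 3. Heat shock genes had 1 call of 17, Dnajb1, a cochaperone of HSP70 (0.71, adjusted p = 0.0384, lost without any of the 6 but CD replicate 1, up to 0.181), and a median of 0.14 from CD replicate 1 and 0.75 from CD replicates 2 and 3. Both lists thus differed less from the CD array that resembled the HF arrays.

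Of the clusters assigned to microRNA genes 3 were lower in HF, where 0.132% of all clusters were called lower. The microRNA clusters tested were not counted, so whether 3 exceeds that share cannot be said. Mir721 read 5.47, 5.27 and 5.54 in HF livers and 6.71, 6.57 and 6.48 in CD livers (-1.16, adjusted p = 0.0258). Mir15a, of the miR-15 family known to restrain the cell cycle, read 5.63, 5.33 and 5.17 in HF livers and 6.19, 6.79 and 6.61 in CD livers (-1.15, adjusted p = 0.0258). Mir669f read 7.04, 7.53 and 6.80 in HF livers and 7.93, 8.81 and 8.69 in CD livers (-1.36, adjusted p = 0.0272). The groups did not overlap for any of these, which holds for all 400 calls and for 15.8% of all clusters. Each call was lost on 4 or more of the 6 omissions, and whole-transcript arrays read the precursor or its host and not the mature microRNA. The mature sequences in RefSeq (GRCm38.p6) of Mir721 at chr5:136375777-136375797 on the minus strand, and of the 5p and 3p arms of Mir15a at chr14:61632075-61632096 and chr14:61632038-61632059 on the minus strand, are printed to show that their seeds differ, with the seed (bases 2 to 8) in capitals.
mmu-miR-721: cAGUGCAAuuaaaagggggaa
mmu-miR-15a-5p: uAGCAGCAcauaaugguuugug
mmu-miR-15a-3p: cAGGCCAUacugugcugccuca

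Some strong differences were in clusters with no gene symbol in the annotation used. TC0900002219.mm.1 read 10.50, 11.08 and 10.90 in HF livers and 5.77, 5.98 and 5.86 in CD livers, and its adjusted p of 1.7e-06 went with a log2 fold change of 4.96. TC1500002286.mm.1 was at -4.00 (adjusted p = 0.00788), with a difference of -1.90 from CD replicate 1 and -5.05 from CD replicates 2 and 3. Both clusters held on every omission.

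At ZT6, in wholly separate mice, the same diets gave 29 calls (0.044% of clusters, 23 higher and 6 lower). Of the transcripts called at ZT18, 18 were also called at ZT6, each in the same direction. Among them were Cyp4a14 (6.62), Cyp17a1 (4.06), Vnn1 (3.33), Apoa4 (2.81), Pnpla3 (2.62), Fabp2 (2.05), Aldh3a2 (1.39), Plin2 (1.05) and Aox3 (-1.53), values that are the log2 fold changes at ZT6. Of the 313 higher transcripts 279 were above 0 at ZT6, at a median of 0.24 there and 0.88 at ZT18, where 53.1% of all clusters were above 0 at ZT6. Of the 87 lower ones 65 were below 0 at ZT6, at a median of -0.17 there and -1.15 at ZT18. Because these transcripts were chosen by their difference at ZT18, the choice itself favours smaller medians at ZT6. The medians therefore do not show a stronger effect of the diet at ZT18.

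For some genes called at ZT18 the groups overlapped or the call was missed at ZT6. Insig2 read 11.19, 12.19 and 11.79 in HF livers and 12.13, 11.70 and 11.11 in CD livers at ZT6, with the groups overlapping (0.08), against 2.53 at ZT18. Cyp7a1 read 14.39, 12.42 and 13.52 in HF livers and 14.43, 12.88 and 13.13 in CD livers at ZT6, also overlapping (-0.04), against -3.24 at ZT18. Cidea was at 0.30 at ZT6 and 3.94 at ZT18, and Cd36 at 2.12 (adjusted p = 0.335) and 5.15. The difference between the times was tested as an interaction of diet and time, and no transcript passed by limma (lowest adjusted p = 0.251). Before adjustment, 5330 of the 65956 clusters had a p under 0.05 and an interaction over 0.32 in size. For Insig2 the interaction was 2.45 (SE 0.46, adjusted p = 0.345) and for Cyp7a1 -3.20 (SE 0.76, adjusted p = 0.426). Negative control medians were also uneven at ZT6, at 4.93 and 5.01 on HF replicates 2 and 3 and 4.95 on CD replicate 3.

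**Figure D5:**
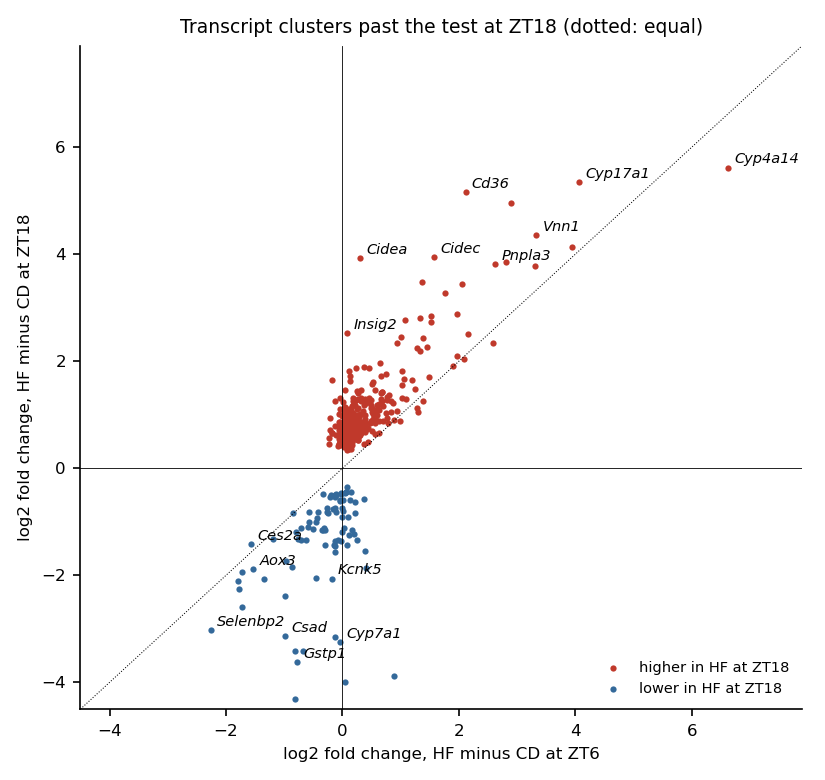
Each point is 1 of the 400 transcripts called at ZT18, with the log2 fold change of HF over CD at ZT6 on the horizontal axis and at ZT18 on the vertical axis. Most points share their sign at both times and lie closer to 0 at ZT6, which the choice of transcripts by ZT18 favours, and Insig2 and Cyp7a1 lie near 0 on the ZT6 axis.

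Levels in the HFN livers at ZT18 are given beside those of HF and CD, with which any contrast of HFN would share arrays. Cd36 read 13.86, 13.52 and 14.41 in HFN livers, within the range of HF. Plin2 read 15.26, 15.31 and 15.39 in HFN livers, just below HF and above CD. Gstp1 read 16.48, 15.79 and 14.79 in HFN livers, overlapping HF and below CD. HFN set against HF at ZT18 gave 0 calls by limma, with a lowest adjusted p of 0.194. Before adjustment, 1851 of the 65956 clusters had a p under 0.05 and a log2 fold change over 0.32 in size.

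Among 21 measured genes that the study itself names at ZT18, 8 were higher in HF than in CD and none lower, with a median of 0.88 at ZT18 and 0.18 at ZT6. The study names genes of this list in comparing HF with HFN or as restored by NAD+, so its comparison was not HF against CD alone. The study chose this list on these samples, so it is not independent evidence of a direction.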

How the data were processed

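Total RNA of whole liver was hybridised to mouse Clariom D arrays, 1 mouse per array. The deposited values are log2 signals that the authors derived from the raw intensities in Transcriptome Analysis Console with its default parameters. Neither how probes were summarized nor the build behind the probe design is stated in what was read here. Of 72688 entries in the table, 65956 transcript clusters were tested, and the 6732 control probe sets were not. Of the clusters tested, 31291 carried 1 gene symbol, 1523 several and 33142 were not listed in the platform annotation or had no symbol there. For a symbol with several clusters the brightest was used. All 18 arrays were fitted with 6 group means in limma 3.58.1 (R 4.3.3), so that all groups share 1 estimate of the spread, after testing the script on simulated data. P-values were adjusted by Benjamini-Hochberg over all clusters, and a call needed an adjusted p under 0.05 and a log2 fold change over 0.32 in size. Signals reach a ceiling at 19.93, where 75 clusters sat on all 6 arrays. The precision is limited by 3 mice per group.

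Genes were named as the 15 largest rises and falls without overlap between groups, up to 4 members of each list described that passed the test (up to 2 by lowest p where none passed), the genes the study names at ZT18, and families with 3 or more such genes. Further list members, genes outside the lists and the unnamed and microRNA clusters were chosen after their values were seen. Members, lists and rule were chosen with earlier results of these data known. Alternatives covered the samples fitted, the filter, the scaling, the variance model, the fold threshold and the omission of arrays. A few clusters may read near-identical genes, and no array identifies which copy was bound.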

Additional observations from a re-analysis of the deposited data

How the results depend on the processing

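Of the 400 calls (313 higher in HF, 87 lower), leaving out 1 array at a time gave 105 to 3256 calls, 85 to 1469 of them higher and 20 to 1787 lower. The lowest came without HF ZT18 replicate 2 and the highest without CD ZT18 replicate 1, when the share of higher calls was 45.1% in place of 78.2%, and with CD ZT18 replicates 2 and 3 both left out there were 67 (41 and 26). Fitting the 2 groups alone gave 46 calls (39 and 7), the negative control covariate 138 (111 and 27), the brighter clusters 622 (482 and 140), clusters with 1 symbol 608 (515 and 93), quantile scaling 483 (390 and 93, 80.7% higher), centring on medians 676 (576 and 100, 85.2%), a trended robust variance 292 (217 and 75), array weights 5188 (2274 and 2914, 43.8%) and unadjusted p-values 5847 (2553 and 3294). A fold of 1.3 gave 396. The interaction of diet and time, with 0 calls, gave 853 with array weights, 5330 unadjusted and 0 to 181 on leaving out 1 array. Same-numbered HF and CD arrays at ZT18 deviated from their group means with correlations of 0.18, -0.19 and 0.26. These values cannot decide whether the numbers pair mice, because CD replicates 2 and 3 stood apart from CD replicate 1. The fit with the replicate number as a block gave 424 calls (314 and 110), 329 of them among the 400. Leaving out or weighting arrays, or changing the filter, threshold or variance model, could not reverse a named gene that passed, since its groups did not overlap. With quantile scaling, centring on medians or the negative control covariate, no such gene changed direction. List medians near 0 did change sign: that of the core clock, -0.02, was 0.03 with quantile scaling and 0.01 with the negative control covariate. Where settings moved a count, the cause was not tested. With 3 mice per group and values near the negative controls, small differences were not detectable.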
